A study of Mus musculus with 6 samples.

Results

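Transcript levels of the Wnt ligands, the Frizzled (Fzd) receptors, their co-receptors Lrp5 and Lrp6, the secreted Frizzled-related (Sfrp) inhibitors and the Lef/Tcf factors were compared between whole male mouse embryos at embryonic day 9.5 (E9.5) with and without Smchd1. The rule for members reads gene symbols and takes every Wnt and Fzd gene, *Sfrp1* to *Sfrp5*, *Lrp5*, *Lrp6*, *Lef1*, *Tcf7*, *Tcf7l1* and *Tcf7l2* in the table, although the family itself was chosen with earlier results of these data known. This gave 40 of the 24207 table entries and 39 symbols, since *Fzd8* is listed as 2 entries. The entries are 19 Wnt ligands, 11 Frizzled receptors, 2 Lrp co-receptors, 4 Sfrp inhibitors and 4 Lef/Tcf factors. *Sfrp3* goes by the symbol *Frzb*, which the rule does not take.

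The samples were 3 Smchd1+/+ embryos (wildtype) and 3 embryos homozygous for the MommeD1 allele, Smchd1MommeD1/MommeD1 (mutant). MommeD1 is a chemically induced nonsense allele of *Smchd1*, a gene for a noncanonical structural maintenance of chromosomes protein with a role in X inactivation and in silencing of some autosomal gene clusters. The labels give the background strain as C57Bl6/J x FVB/n, whereas the study's text describes a backcross of the mutation to a different inbred strain. Libraries were made from total RNA of whole embryos and their reads did not record the strand of the transcript.

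The table gives 1 pooled value per genotype in FPKM (fragments per kilobase of transcript, scaled to the mapped reads), a unit corrected for gene length and depth. No value for a single embryo was analysed here. The differences below therefore have no replicate error and no test, and they describe a pair of pooled values. Each difference is a log2 ratio of mutant over wildtype after adding 0.1 FPKM to both values, a ratio that understates the difference for low genes. Entries were counted as past 1.5-fold only where the mean of both genotypes was at least 1 FPKM. *Smchd1* itself was at 2.12 FPKM in the mutant and 34.0 FPKM in the wildtype, 16.1-fold lower in the mutant, in the direction that the labels give.

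Wnt proteins are secreted, lipid-modified signals that bind Frizzled receptors. With Lrp5 or Lrp6 as co-receptor they stabilise beta-catenin, which enters the nucleus and acts with Lef/Tcf factors on target genes. Other Wnt signals act without beta-catenin on cell polarity and movement. Sfrp proteins carry a Frizzled-like domain and bind Wnts outside the cell. In the midgestation embryo Wnt signalling maintains the tail bud, patterns the brain and dorsal neural tube, and contributes to limb, heart and neural crest development.

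Most members were present at similar levels in both genotypes. Of the 40 entries, 35 had a mean of at least 1 FPKM, and 2 of these 35 lay past 1.5-fold, *Wnt7b* being higher and *Sfrp5* lower in the mutant. That is 5.71% of the members, beside 4.98% of all 12463 entries past the same filter. One direction at a time, 1 of 35 members was higher, beside 3.51% of all entries, and 1 of 35 was lower, beside 1.47%. The members' share was thus near the background and is not a result about the family.

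The spread of the ratios depends on the level. Among all entries, 11.5% of those from 1 to 5 FPKM lay past 1.5-fold, 2.89% of those from 5 to 20 FPKM, and 1.85% of those of at least 20 FPKM. Members past 1.5-fold were 1 of 15, 1 of 11 and 0 of 9 in these bands. The median log2 ratio was 0.05 over the 35 members and -0.0076 over all entries. Ratios within 0.2 of 0 on the log2 scale were found for 54.3% of members and 72.1% of all entries. The members' share was also lower inside each band. It was 40% beside 54.3% from 1 FPKM, 54.5% beside 75.2% from 5 FPKM and 77.8% beside 83.7% from 20 FPKM. These bands hold only 15, 11 and 9 members.

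**Figure D1:**
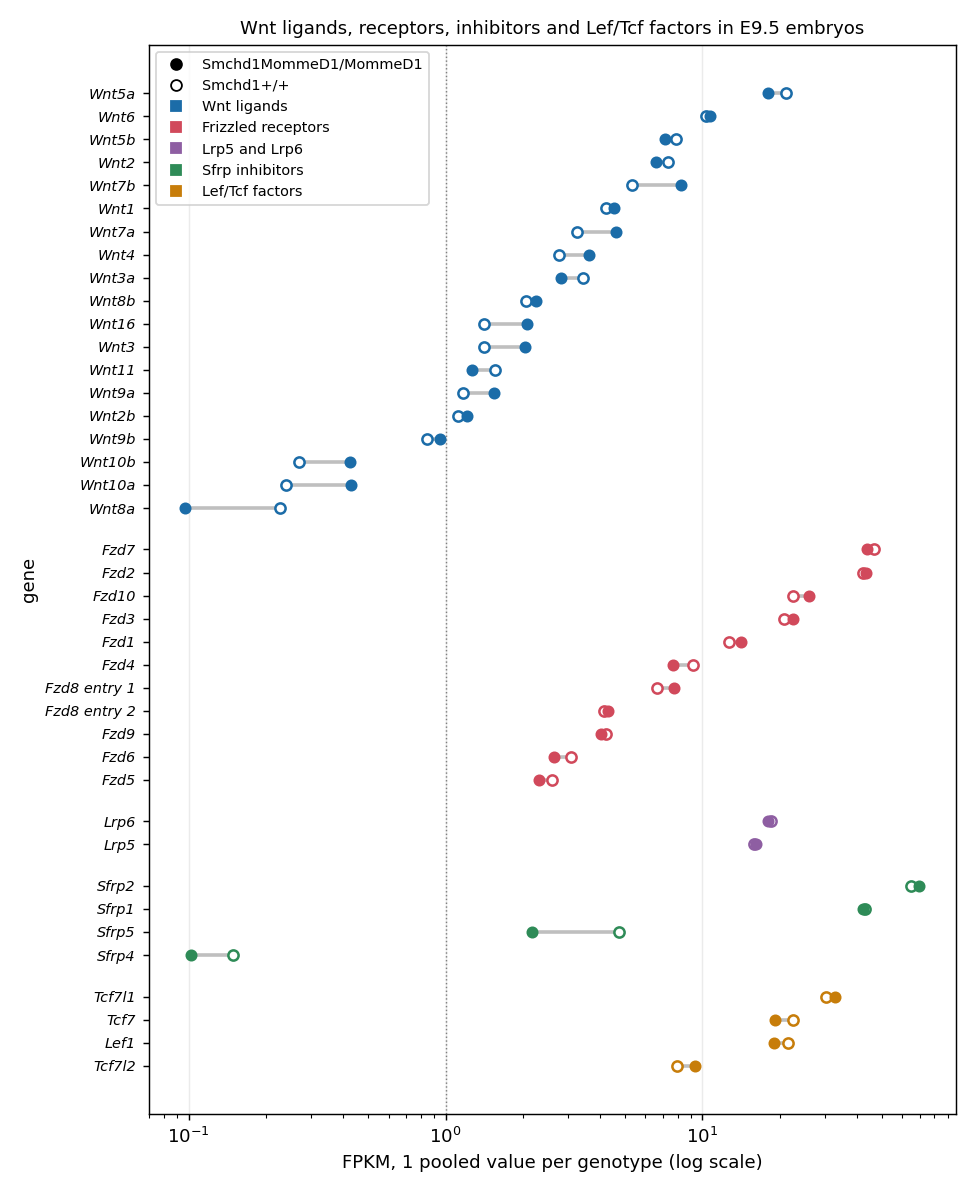
FPKM of each of the 40 entries on a log axis, with filled circles for Smchd1MommeD1/MommeD1 and open circles for Smchd1+/+, coloured by class; each circle is 1 pooled value and has no error bar. The circles of most genes lie close together, and the widest gaps above 1 FPKM are those of *Wnt7b* and *Sfrp5*.

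**Figure D2:**
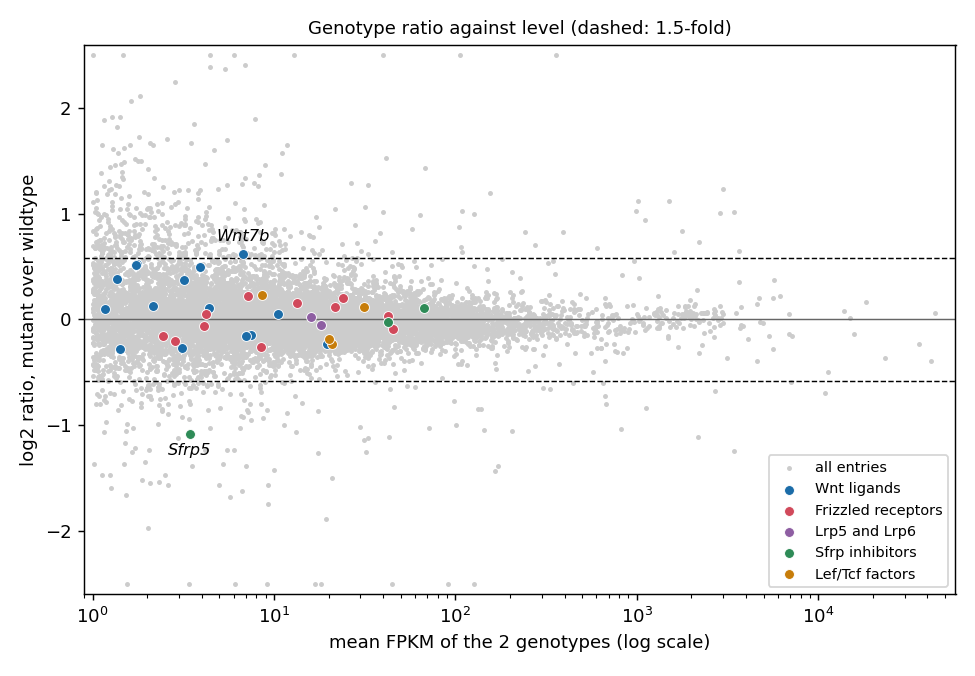
Log2 ratio of mutant over wildtype against the mean FPKM of both genotypes (log axis) for the 12463 entries of at least 1 FPKM, with the members coloured by class and dashed lines at 1.5-fold. The 17 entries beyond 2.5 in either direction are drawn at that limit, and of the members only *Wnt7b* and *Sfrp5* lie outside the dashed lines.

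Among the ligands, *Wnt7b*, known for roles in placental and lung development, was at 8.24 FPKM in the mutant and 5.34 FPKM in the wildtype, 1.55-fold higher (log2 ratio 0.62). Its locus on chromosome 15 (85535437 to 85593708, mm10) also carries the entry *AU022754*, which was at 0.0533 FPKM in the mutant and 0.0626 FPKM in the wildtype. The close paralog *Wnt7a*, a dorsal signal of the limb ectoderm, was at 4.61 FPKM in the mutant and 3.25 FPKM in the wildtype (0.49). *Wnt7b* was no longer past 1.5-fold with a pseudocount of 1 FPKM (log2 ratio 0.55), and it drops out where entries at shared loci are left out. Both *Wnt7* genes were higher in the mutant, with a summed level of 12.9 FPKM against 8.58 FPKM, although *Wnt7a* stayed within 1.5-fold.

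Of the further ligands, 4 had log2 ratios between 0.37 and 0.53. *Wnt16* was at 2.08 FPKM in the mutant and 1.41 FPKM in the wildtype (log2 ratio 0.53), and *Wnt3*, a ligand needed to form the primitive streak, was at 2.05 and 1.41 FPKM (0.51). *Wnt9a* was at 1.55 and 1.17 FPKM (0.38) and *Wnt4*, known from kidney and ovary development, at 3.61 and 2.77 FPKM (0.37). These genes lie in the band where ratios of all entries spread widely, and none of them reached 1.5-fold.

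Ligands that were lower in the mutant differed less. *Wnt3a*, a ligand of the tail bud and the dorsal neural tube, was at 2.82 FPKM in the mutant and 3.43 FPKM in the wildtype (log2 ratio -0.27). *Wnt3* and *Wnt3a* thus differed in opposite directions, and their sum was 4.87 against 4.83 FPKM. *Wnt11*, a regulator of cell movements that acts largely without beta-catenin, was at 1.27 and 1.56 FPKM (-0.28). *Wnt5a*, a signal for outgrowth of the limbs, face and tail, was at 17.9 and 21.1 FPKM (-0.24). *Wnt5a* was the ligand with the highest level in both genotypes.

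The other ligands of at least 1 FPKM had log2 ratios within 0.2 of 0. *Wnt6*, a ligand of surface ectoderm, was at 10.7 FPKM in the mutant and 10.3 FPKM in the wildtype. *Wnt5b* was at 7.12 and 7.88 FPKM, and *Wnt2*, expressed in heart and lung mesoderm, at 6.60 and 7.37 FPKM. *Wnt1*, needed for the midbrain and for neural crest, was at 4.54 and 4.22 FPKM, a difference of 0.10 on the log2 scale. *Wnt8b*, a ligand of the dorsal forebrain, was at 2.25 and 2.06 FPKM and *Wnt2b* at 1.21 and 1.12 FPKM.

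The other 4 ligands were under the filter. *Wnt9b* was at 0.950 FPKM in the mutant and 0.849 FPKM in the wildtype, *Wnt10b* at 0.424 and 0.270 FPKM and *Wnt10a* at 0.427 and 0.240 FPKM. *Wnt8a*, an early ligand of the posterior embryo, was at 0.0970 and 0.227 FPKM, and is named here after its values were seen. At such levels the fold between a pair of pooled values is poorly determined, and these genes were not counted.

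The order of the ligands was similar in both genotypes. *Wnt5a*, *Wnt6*, *Wnt5b*, *Wnt2* and *Wnt7b* together made up 64.5% of the summed ligand FPKM in the mutant and 68.5% in the wildtype. *Wnt5a* alone took 22.9% and 27.8%, and *Wnt7b* took 10.5% and 7.02%, which placed *Wnt7b* at rank 3 in the mutant and rank 5 in the wildtype. The summed level of all 19 ligands was 78.5 FPKM in the mutant and 76.0 FPKM in the wildtype. Without an error for either value, neighbours in this order cannot be called different.

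**Figure D3:**
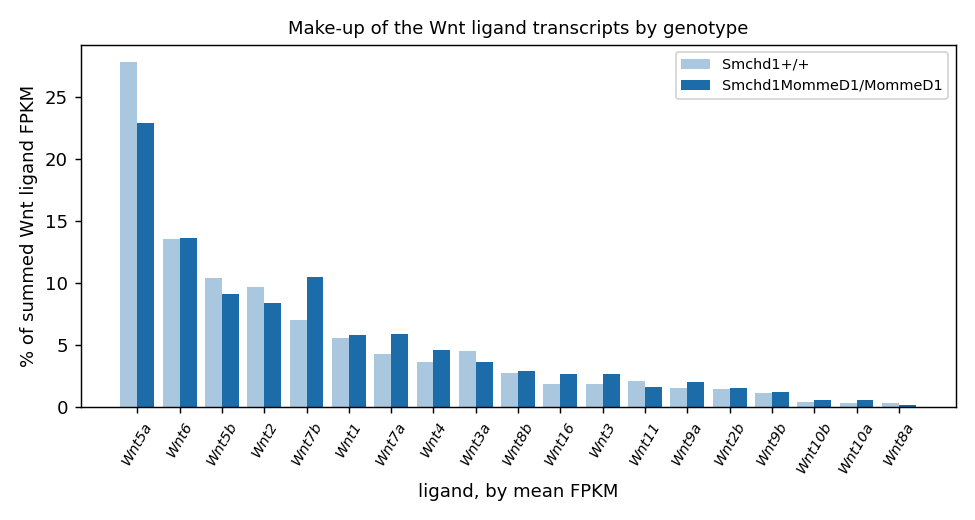
Share of the summed Wnt ligand FPKM taken by each of the 19 ligands, in % (1 pooled value per genotype, bars from 0), ordered by mean FPKM. *Wnt5a* takes the largest share in both genotypes, 27.8% in Smchd1+/+ and 22.9% in Smchd1MommeD1/MommeD1.

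Several Wnt genes sit side by side in the genome. *Wnt6* and *Wnt10a* are 6529 bp apart on chromosome 1, *Wnt10b* and *Wnt1* 11706 bp apart on chromosome 15, *Wnt3a* and *Wnt9a* 16178 bp apart on chromosome 11, and *Wnt9b* and *Wnt3* 24353 bp apart on the same chromosome, as the table bounds them. RefSeq gives a longer *Wnt9b* that overlaps *Wnt3*, so reads of these neighbours cannot be fully told apart. The neighbours *Wnt3a* and *Wnt9a* had log2 ratios of opposite sign, -0.27 and 0.38. In the other 3 pairs both ratios were above 0, the pairs differing by 0.37 to 0.58 on the log2 scale. Each of these pairs holds a gene under the filter (*Wnt10a*, *Wnt10b* or *Wnt9b*), so their ratios are poorly determined.

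The Frizzled receptors differed little between the genotypes. All 11 entries were above the filter and none lay past 1.5-fold, with log2 ratios between -0.26 and 0.22 and a median of 0.04. *Fzd7* was at 43.8 FPKM in the mutant and 46.6 FPKM in the wildtype, and *Fzd2* at 43.3 and 42.2 FPKM. These receptors together made up 48.8% of the summed receptor FPKM in the mutant and 50.9% in the wildtype.

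*Fzd10* was at 25.9 FPKM in the mutant and 22.5 FPKM in the wildtype, *Fzd3*, a receptor for axon guidance and planar polarity, at 22.6 and 20.8 FPKM, and *Fzd1* at 14.1 and 12.6 FPKM. *Fzd10* shares its locus with *5930412G12Rik*, which was at 3.02 and 4.51 FPKM. *Fzd4*, also a receptor for Norrin in blood vessels, had the lowest ratio of the class, at 7.69 and 9.22 FPKM (log2 ratio -0.26). The *Fzd8* entries cover the same coordinates and were at 7.77 and 6.66 FPKM (0.22) in one and at 4.29 and 4.14 FPKM (0.05) in the other. The remaining receptors were at low levels, *Fzd9* at 4.03 and 4.21 FPKM, *Fzd6*, which acts in planar polarity, at 2.65 and 3.07 FPKM, and *Fzd5* at 2.31 and 2.60 FPKM.

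The co-receptors were close to equal. *Lrp6* was at 17.9 FPKM in the mutant and 18.6 FPKM in the wildtype (log2 ratio -0.05), and *Lrp5* at 16.1 and 15.8 FPKM (0.03).

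Among the inhibitors, *Sfrp5*, known from the anterior visceral endoderm and the foregut, was at 2.18 FPKM in the mutant and 4.72 FPKM in the wildtype, 2.17-fold lower in the mutant (log2 ratio -1.08). This was the log2 ratio farthest from 0 among the 35 members. *Sfrp5* lies on chromosome 19 (42197971 to 42202252, mm10) and shares its locus with no other entry. *Sfrp2* was at 69.5 and 64.6 FPKM (0.11) and *Sfrp1* at 42.1 and 42.8 FPKM (-0.02). Together these made up 98.0% of the summed FPKM of the 4 Sfrp members in the mutant and 95.7% in the wildtype. The summed level of these 4 members was therefore near equal, at 114 and 112 FPKM. That sum leaves out *Frzb* (*Sfrp3*), which was at 13.2 FPKM in the mutant and 12.6 FPKM in the wildtype (0.06). *Sfrp4* was under the filter at 0.102 and 0.149 FPKM, and is likewise named after its values were seen.

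The Lef/Tcf factors, through which beta-catenin reaches DNA, formed pairs of opposite sign. *Tcf7l1*, which mostly acts as a repressor, was at 32.8 FPKM in the mutant and 30.2 FPKM in the wildtype (log2 ratio 0.12), and *Tcf7l2* at 9.32 and 7.93 FPKM (0.23). *Tcf7* was at 19.1 and 22.4 FPKM (-0.23) and *Lef1*, which mostly acts as an activator, at 18.9 and 21.5 FPKM (-0.18). The differences stayed within 1.5-fold, and *Tcf7* shares its locus with the far more abundant *Skp1a*, at 329 and 363 FPKM.

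Genes that act around the members were described from lists of known function. The carrier *Wls*, which takes Wnt proteins to the cell surface, was at 54.2 FPKM in the mutant and 67.7 FPKM in the wildtype (log2 ratio -0.32). The acyltransferase *Porcn*, which adds the lipid, was at 3.39 and 4.16 FPKM (-0.29), and *Notum*, which removes it, at 2.31 and 2.33 FPKM. None of these 3 genes of ligand chemistry lay past 1.5-fold.

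Of 11 other extracellular antagonists, 1 was lower past 1.5-fold and none was higher. This was *Cer1*, an inhibitor of Nodal, BMP and Wnt signals, at 0.526 FPKM in the mutant and 1.51 FPKM in the wildtype. Of 7 genes of the R-spondin and receptor turnover list, 1 was higher, the Wnt-enhancing *Rspo4* at 2.76 and 1.28 FPKM (log2 ratio 1.06). The means of both genes lie between 1 and 5 FPKM, where 304 of 3546 entries were higher and 103 lower past 1.5-fold. *Cer1*, with a mean of 1.02 FPKM, passed the filter only through its wildtype value. Over all entries past the filter, 3.51% were higher and 1.47% lower. A single call in such a short list is not a result about the list. The *Rspo4* relative *Rspo2* was just inside the limit at 3.78 and 2.49 FPKM (0.58).

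The intracellular chain showed smaller ratios. None of the 13 genes of the cytoplasmic chain and destruction complex lay past 1.5-fold, all of them lying within 0.2 of 0 on the log2 scale. *Ctnnb1*, which encodes beta-catenin, was at 421 FPKM in the mutant and 418 FPKM in the wildtype. None of the 4 receptors outside the Frizzled family, the 8 planar polarity genes or the 7 nuclear partners lay past 1.5-fold either.

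The list of Wnt/beta-catenin targets was drawn up with earlier results of these data known, so its share of calls tests nothing about the pathway. Of its 19 genes past the filter, 6 were lower in the mutant past 1.5-fold and none was higher, beside 1.47% of all entries lower. They were *Cdx4* at 4.24 FPKM in the mutant and 14.4 FPKM in the wildtype (log2 ratio -1.74), *Msgn1* at 2.88 and 7.57 FPKM (-1.36) and *T* at 3.23 and 7.75 FPKM (-1.24). *Cdx1* was at 2.30 and 4.49 FPKM (-0.94), *Sp5* at 3.03 and 5.58 FPKM (-0.86) and *Tbx6* at 1.67 and 3.004 FPKM (-0.81). *T*, *Msgn1* and *Tbx6* are transcription factors of tail bud mesoderm, the *Cdx* genes pattern the posterior body, and *Sp5* is a widely used direct target. *Axin2*, a feedback inhibitor and general target, was at 15.6 and 15.1 FPKM (0.05).

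Those targets overlapped the tail bud marker list. All 5 target genes that are also on that list were lower past 1.5-fold, whereas 1 of the 14 target genes not on it was, namely *Sp5*. This split was made after the values had been seen. In the whole tail bud list, also drawn up with earlier results known, 9 of 15 genes were lower and none higher. The share of lower calls over all entries was 1.47%. The median log2 ratio of the list was -0.94, and 4 of the 10 tail bud genes outside the target list were lower. Because whole embryos were sequenced, fewer cells of a type and less RNA per cell cannot be told apart here, and the part of tail bud cells in the target values was not tested. *Wnt3a*, a ligand of the tail bud but also of the dorsal neural tube, had a log2 ratio of -0.27 in the whole embryo. Its part in the target values was not tested.

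**Figure D4:**
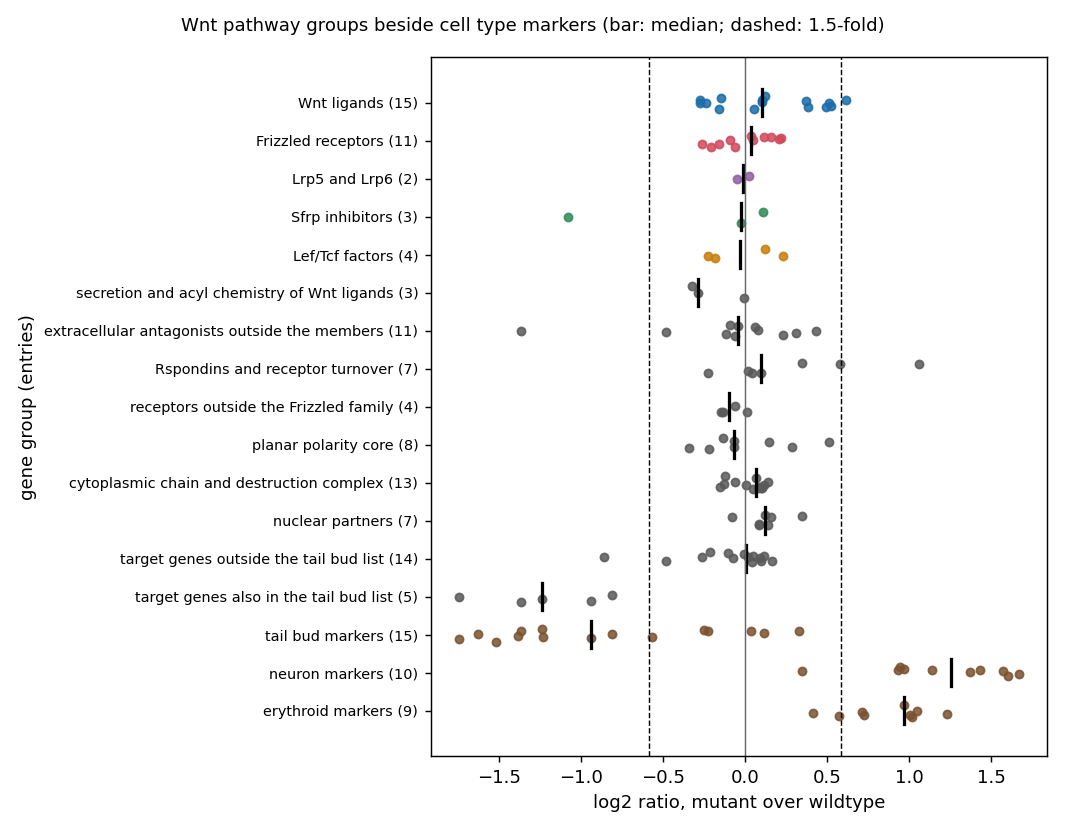
Log2 ratio of mutant over wildtype for every gene of at least 1 FPKM in the member classes (coloured), the other Wnt pathway lists (grey) and 3 marker lists (brown), with the number of entries in brackets, a bar at each median and dashed lines at 1.5-fold. The target genes shared with the tail bud list and the tail bud markers lie to the left, the neuron and erythroid markers to the right, and the cytoplasmic chain close to 0.

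Markers of other cell types also differed between the genotypes, in lists that were likewise drawn up with earlier results known. Over all entries, 3.51% were higher and 1.47% lower past 1.5-fold. Of 10 neuron markers, 9 were higher past 1.5-fold and none lower, their summed level being 196 FPKM in the mutant and 80.5 FPKM in the wildtype. Of 9 erythroid markers, 7 were higher and none lower, with summed levels of 12732 and 6033 FPKM. Such cells contribute to the same pooled RNA as *Wnt7a* and *Wnt7b*, and their part in the *Wnt7* values was not tested.

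For the neural sites of Wnt expression, none of 9 markers of the dorsal neural tube and roof plate lay past 1.5-fold, with a median log2 ratio of 0.33, and none of 7 markers of the midbrain-hindbrain border did, with a median of -0.14. Among 9 limb bud markers 1 was higher, beside 3.51% of all entries. This was *Lhx2* at 20.3 FPKM in the mutant and 13.1 FPKM in the wildtype. Among 8 surface ectoderm markers 2 were lower, beside 1.47% of all entries. These were the keratins *Krt8* at 46.8 and 73.1 FPKM and *Krt18* at 42.3 and 65.4 FPKM. Of the 8, 6 had ratios below 0 and 2 above 0. The latter were *Trp63* at 5.46 and 4.07 FPKM and *Tfap2c* at 2.95 and 2.36 FPKM, both within 1.5-fold. None of 7 heart markers lay past 1.5-fold, all having ratios below 0. Over all entries past the filter, 6460 of 12463 had ratios below 0.

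Beside *Sfrp5* and *Cer1*, markers of visceral endoderm and yolk sac were examined. Of 11 genes, 9 had a lower value in the mutant, and 6460 of all 12463 entries past the filter had a log2 ratio below 0. The 9 include 6 of the 7 genes under the filter, where folds are poorly determined. Of the 4 above it, 3 were lower past 1.5-fold and 1 was higher, beside 1.47% and 3.51% of all entries. *Ttr* was at 2.48 FPKM in the mutant and 7.51 FPKM in the wildtype, *Rbp4* at 6.46 and 11.8 FPKM and *Apoa1* at 1.67 and 3.13 FPKM, whereas *Afp* was higher at 14.7 and 8.10 FPKM. *Hnf4a*, under the filter, also had a higher value in the mutant, at 0.449 and 0.401 FPKM. The summed level of all 11 was 26.7 FPKM in the mutant and 36.4 FPKM in the wildtype, none being at 0. Without *Afp*, which was left out after its value was seen, the sum was 12.0 and 28.3 FPKM. The part of these cells in the *Sfrp5* value was not tested. Of 8 trophoblast and decidua markers, 3 were listed at 0 in both genotypes (*Prl3d1*, *Prl2c2* and *Tpbpa*), and only *Plac1* was above the filter, at 3.14 and 3.70 FPKM.

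Promoter sequences were searched for a Lef/Tcf motif because ligands and targets of the pathway can respond to it. The letters CTTTGAT were sought on either strand in windows from 250 bases before to 50 bases after the start site, as given by RefSeq for GRCm38.p6. They were found in 2 of 35 promoters of 27 member genes, those of *Wnt5b* and *Wnt11*, in 2 of 16 promoters of 13 target genes, those of *Sp5* and *Msgn1*, and in 1225 of all 32851 promoters, or 3.73%. No match lay in a promoter of *Sfrp5*, and *Wnt7b* was not among the genes searched. The 4 windows with a match are shown after the values were seen, 5′ to 3′ on the strand of the gene and with the match, or its reverse complement, in capitals.
*Wnt5b*, chr6:119449424-119449484, minus strand: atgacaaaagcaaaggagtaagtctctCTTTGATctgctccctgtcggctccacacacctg
*Wnt11*, chr7:98835034-98835094, plus strand: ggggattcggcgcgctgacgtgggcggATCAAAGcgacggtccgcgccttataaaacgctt
*Sp5*, chr2:70474792-70474852, plus strand: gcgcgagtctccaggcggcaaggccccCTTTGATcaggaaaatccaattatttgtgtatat
*Msgn1*, chr12:11209118-11209178, minus strand: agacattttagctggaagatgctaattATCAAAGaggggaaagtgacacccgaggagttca
The matches begin 71, 51, 104 and 203 bases before the start site used, in that order. Some genes have several start sites, hence 35 promoters for 27 member genes. The start sites used here for *Wnt5b* and *Wnt11* lie inside these genes, whose outer 5′ ends RefSeq puts at 119544824 and 98835084. The motif stands upstream of a pair of genes that were lower past 1.5-fold, *Sp5* and *Msgn1*, and of a pair that were not, *Wnt5b* and *Wnt11*. A match is a description of the letters and does not show a bound site.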

How the data were processed

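RNA was sequenced from 3 Smchd1+/+ and 3 Smchd1MommeD1/MommeD1 male E9.5 embryos as single-end, nondirectional reads. The submitters' processing notes name TopHat2 2.0.6, Bowtie2 2.0.2, Cufflinks 2.0.2 and Cuffdiff 2.0.2 and the mm10 genome. The authors deposited 1 table with FPKM values pooled over the embryos of each genotype. Its further columns hold the authors' own comparison (fold change, test statistic, p and q values and status) and were not used. The genotype of each column was read from column names that abbreviate it, together with the study's description of the same table. Read depth per embryo was not given in the sources used here. Low values of the mutant column fell into steps, as single reads would give, but those of the wildtype column did not clearly do so, so read counts were not recovered.

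Log2 ratios were taken after adding 0.1 FPKM, and entries with a mean of at least 1 FPKM past 1.5-fold were counted (Python 3.11.15, pandas 2.3.3). Counting was tested on simulated data. Coordinates were counted from 1. Every member of at least 1 FPKM was given with both values, members under it where a value reached 0.3 FPKM, and from each list at most 8 genes past 1.5-fold, besides *Axin2*, *Sp5*, *Ctnnb1*, *Porcn* and *Wls*. Some further list genes were named after their values were seen. *Draxin* was matched through its older symbol. Members and lists were chosen with earlier results of these data known. Where several genes share a locus, or overlap on opposite strands, reads may be divided uncertainly between them, and 6 members share a locus with another gene. Alternatives were another pseudocount, filter, fold and scaling.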

Additional observations from a re-analysis of the deposited data

How the results depend on the processing

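No paired analysis was possible because the table holds 1 pooled value per genotype, and for the same reason no embryo could be left out in turn. With no replicate spread, an alternative was counted as similar where a value moved by less than 1.5-fold, and a median as opposite in sign only where it was at least 0.1 in size. Of 376 alternative values, 359 were similar by that rule, including all 175 of single members. Those 175 differ from the main values only by the pseudocount or a constant scaling, so they met the rule easily. Of the 36 alternative counts, 22 were similar and 14 moved. Of the 35 members, 34 kept the sign of their ratio in every setting, the exception being *Sfrp1*. The call of *Wnt7b* was near the limit. No member was higher past 1.5-fold with a pseudocount of 1 FPKM, 0 at 2-fold, and 0 when entries at shared loci were left out, a setting added after the data were seen. With no filter 2 members were higher (*Wnt7b* and *Wnt10a*) and 2 lower (*Sfrp5* and *Wnt8a*), and with a mean of at least 5 FPKM 0 were lower, since *Sfrp5* is under that level. Over all entries, 438 higher and 183 lower became 253 and 112 with the pseudocount of 1 FPKM, 1242 and 589 with no filter, 134 and 80 from 5 FPKM, and 122 and 64 at 2-fold. The median of the Wnt ligands, 0.10, was -0.14 from 5 FPKM, where 5 ligands remained, and that of the trophoblast and decidua list was 0.28 with no filter, against -0.23. The share of higher calls was 70.5%, and 76.5% after scaling both columns to the same total.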
